A study of Homo sapiens with 24 samples.

Results

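The 10 genes described here encode transcription factors of the neural crest and of epithelial-mesenchymal transition (EMT). They are SNAI1, SNAI2, TWIST1, ZEB2, FOXD3, SOX10, SOX9, TFAP2A, TFAP2B and PRDM1, taken by name. All 10 were among the 61544 identifiers of the organoid table and passed its filter on low counts, as members of 19704 genes tested. In the neural progenitor cell (NPC) table of 10221 gene symbols, 5 were listed, and the same 5 were tested among 9860 genes, namely SNAI1, TWIST1, SOX9, TFAP2B and PRDM1. SNAI2, SOX10, FOXD3, TFAP2A and ZEB2 were not analysed here in NPCs.

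All libraries derive from the human embryonic stem cell line H9, sequenced as NPCs or as cerebral organoids, aggregates of neural tissue, at day 30. In each system the groups were sh1 and sh4, which carried hairpins against the histone H3K36 demethylase KDM2A, and NC, which carried a scrambled hairpin and is labelled WT. The labels name the agents of sh1 and sh4 siRNA-1 and siRNA-4. Stem cells of every group received lentivirus at a multiplicity of infection of 20 and puromycin at 1 µg/ml. There were 5 libraries per group in NPCs and 3 per group in organoids, 24 in all, and no label ties them to separate cultures. The p-values therefore cover the spread among these libraries, which may be technical. The question was which genes differ when KDM2A is knocked down. With a bulk measurement of mixed tissue, fewer cells of a type and less RNA per cell cannot be told apart.

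Neural crest cells arise at the border between neural plate and surface ectoderm, leave the neural tube by EMT and form peripheral neurons and glia, pigment cells and much of the skeleton of the face. AP-2 factors (TFAP2A, TFAP2B) and, in zebrafish, Prdm1 act at the border. FOXD3, SOX9 and SOX10 specify the crest, and SNAI1, SNAI2, TWIST1 and ZEB2 drive EMT, the SNAI and ZEB proteins by repressing epithelial genes such as CDH1. Several of these genes also work outside the crest: SOX9 in neural progenitors, glia and cartilage, ZEB2 in neurons, TWIST1 in mesenchyme and PRDM1 in blood cells.

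KDM2A itself averaged 92.1 ± 4.15 CPM (counts of a library scaled by its total and its TMM factor, which corrects for composition) in sh1 NPCs, 95.1 ± 4.21 CPM in sh4 NPCs and 186 ± 15.3 CPM in NC NPCs (SD, n = 5 each), log2 fold changes of -1.02 for sh1 and -0.97 for sh4 (edgeR adjusted p = 5.12e-12 and 7.36e-12). In organoids it averaged 110 ± 6.97 CPM in libraries labelled sh1, 101 ± 4.89 CPM in those labelled sh4 and 101 ± 4.00 CPM in those labelled NC (SD, n = 3 each), log2 fold changes of 0.14 for sh1 and 0.01 for sh4 (edgeR adjusted p = 0.127 and 0.926). A lower KDM2A level was thus not seen in the organoid libraries labelled sh1 and sh4, which are called sh1 and sh4 organoids below by their labels alone. Totals ran from 12733885 to 20185308 counts in NPC libraries and from 15899248 to 18853747 counts in organoid libraries. Organoids labelled sh4 stood apart in the share of counts from their 10 most abundant genes and in the share from mitochondrial genes. The first was 6.73 to 7.41% in sh1, 11.8 to 14.5% in sh4 and 5.38 to 5.81% in NC, and the second was 3.14 to 3.29% in sh1, 5.05 to 6.02% in sh4 and 3.07 to 3.50% in NC. The 13 neural progenitor markers were all detected in organoids, and their summed level was lower in both hairpin groups (880 to 1000 CPM in sh1, 396 to 524 CPM in sh4, against 2049 to 2288 CPM in NC).

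In organoids, SNAI2 and TWIST1 rose and SOX9 fell with both hairpin labels, SNAI1 rose with sh1, the crest specifiers FOXD3 and SOX10 differed between the hairpins, and the AP-2 genes showed no call. A call needed a Benjamini-Hochberg adjusted p under 0.05 in edgeR's quasi-likelihood test together with a log2 fold change of 1 or more in either direction. Between sh1 and NC, 4 of 10 members rose (SNAI1, SNAI2, TWIST1, PRDM1) and 1 fell (SOX9), where 12.1% of all genes tested rose and 7.92% fell. These 5 calls became 3 without sh1 replicate 1 or NC replicate 1, and up to 7 with another library left out. Between sh4 and NC, 3 of 10 rose (SNAI2, TWIST1, PRDM1) and 2 fell (SOX9, FOXD3), where 20.0% of all genes rose and 15.5% fell. SNAI2, TWIST1 and PRDM1 thus rose and SOX9 fell with each hairpin, and these 2 comparisons share the NC libraries. The members' median log2 fold change was 1.33 with sh1 (0.02 over all genes) and -0.17 with sh4 (-0.01 over all genes). Libraries of the groups did not overlap in CPM for 8 of 10 members between sh1 and NC and for 7 of 10 between sh4 and NC, where 62.1% and 73.1% of all genes did not overlap.

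**Figure D1:**
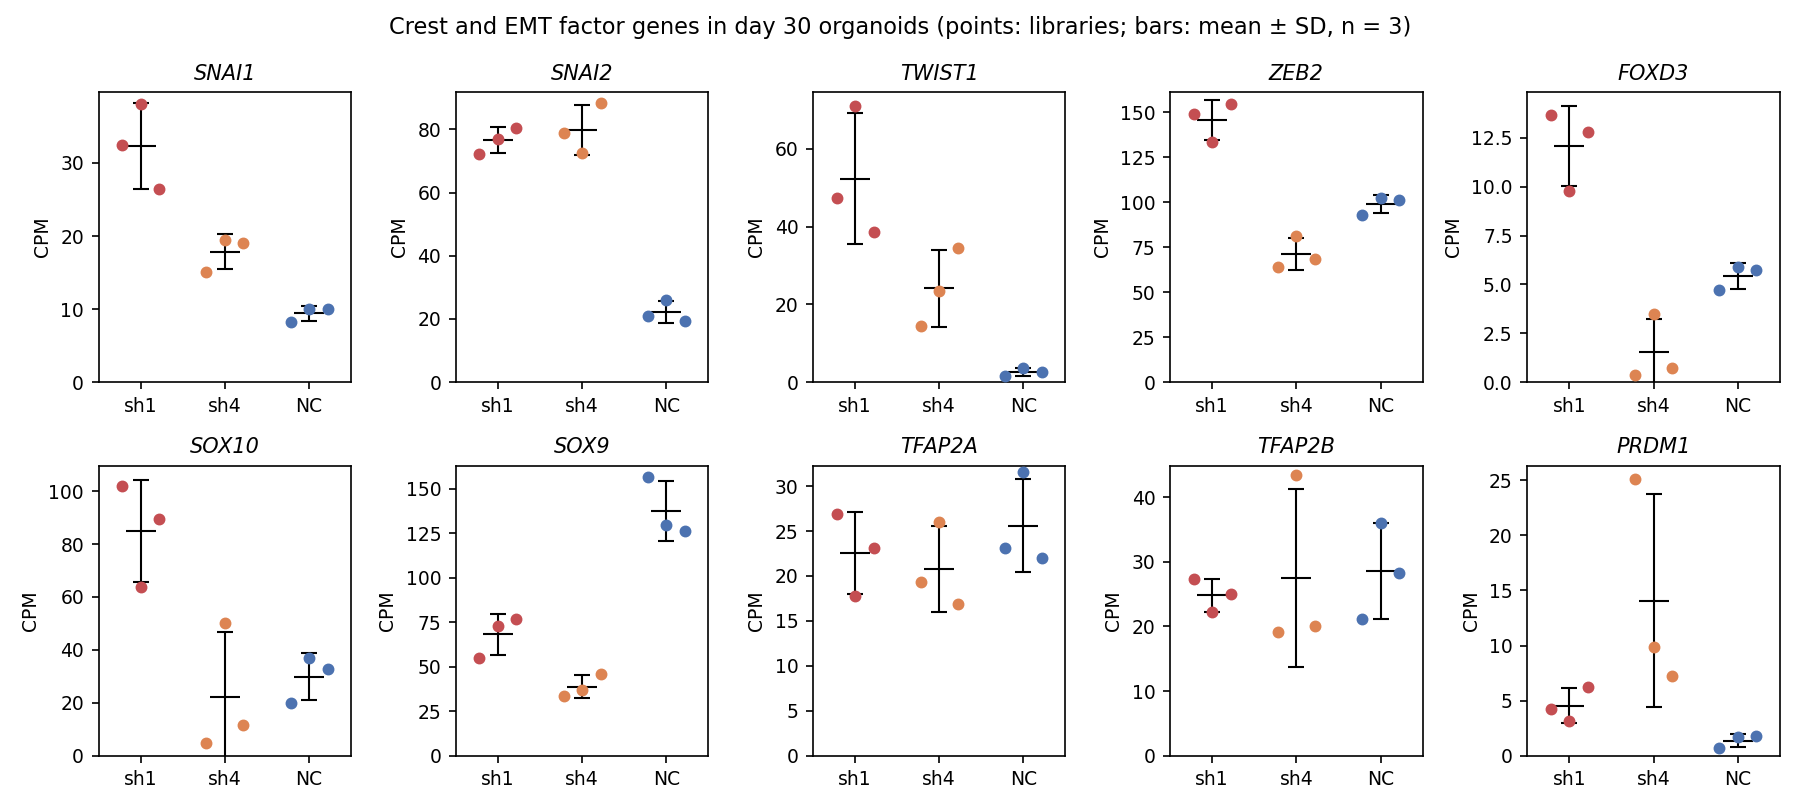
CPM of the 10 genes in day 30 organoids (vertical axes, linear, each from 0), by label (sh1, sh4, NC); points are libraries and bars are the mean ± SD of 3. SNAI2 and TWIST1 lie above every NC library in all 6 hairpin libraries, SOX9 lies below, and 1 sh4 library carries most of the SOX10 and FOXD3 signal of its group.

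Of the EMT factors, SNAI2, also called SLUG, a zinc finger repressor made by crest cells as they leave the neural tube, lies on chromosome 8 (48917604 to 48921740, minus strand, GRCh38, GENCODE 29; ENSG00000019549.13 in the table). It had 72.3, 77.0 and 80.4 CPM in sh1 organoids, 78.8, 72.6 and 88.4 CPM in sh4 organoids and 21.0, 26.0 and 19.4 CPM in NC organoids. All 6 hairpin libraries were above the NC libraries, and the hairpin groups overlapped each other. The log2 fold change was 1.79 for sh1 (SE 0.12, edgeR adjusted p = 5.12e-06) and 1.85 for sh4 (SE 0.12, edgeR adjusted p = 1.22e-06). Between sh1 and sh4 it was -0.06 (95% interval -0.31 to 0.19), and the sign turned with library size alone as scaling (0.17).

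TWIST1, a basic helix-loop-helix factor of crest-derived mesenchyme, lies on chromosome 7 (19020991 to 19117672, minus strand; ENSG00000122691.13). Its level was 47.4, 71.2 and 38.5 CPM in sh1 organoids, 14.4, 23.5 and 34.4 CPM in sh4 organoids and 1.55, 3.68 and 2.70 CPM in NC organoids. The 3 groups did not overlap. The log2 fold change was the largest of the members in sh1, at 4.30 (SE 0.41, edgeR adjusted p = 3.81e-05), and was 3.19 in sh4 (SE 0.41, edgeR adjusted p = 7.79e-05). TWIST1 was also higher in sh1 than in sh4, by 1.12 on the log2 scale (SE 0.33, edgeR adjusted p = 0.0197), a call that was lost without sh1 replicate 2 (0.84) or sh4 replicate 1 (0.86).

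SNAI1, the SNAIL repressor of CDH1, lies on chromosome 20 (49982999 to 49988886, plus strand; ENSG00000124216.4). It had 32.5, 38.1 and 26.4 CPM in sh1 organoids, 15.1, 19.5 and 19.0 CPM in sh4 organoids and 8.17, 10.1 and 9.97 CPM in NC organoids. Here too the groups did not overlap, in the order sh1, sh4, NC. The log2 fold change was 1.78 for sh1 (SE 0.16, edgeR adjusted p = 3.11e-05). For sh4 it was 0.92 (SE 0.16, edgeR adjusted p = 6.69e-04), under the fold threshold, and it passed without sh4 replicate 1 (1.035). The difference between sh1 and sh4, 0.86 (edgeR adjusted p = 0.00178), was also under the fold threshold with TMM scaling and passed it with library size alone (1.08).

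ZEB2, the SIP1 repressor, which also acts in migrating neurons, lies on chromosome 2 (144364364 to 144524583, minus strand; ENSG00000169554.23). It had 149, 133 and 154 CPM in sh1 organoids, 64.0, 81.2 and 68.5 CPM in sh4 organoids and 92.9, 102 and 101 CPM in NC organoids. The sh1 libraries lay above and the sh4 libraries below the NC libraries, with no overlap. Neither comparison with NC passed the fold threshold (0.56 for sh1, SE 0.10, edgeR adjusted p = 0.00119, and -0.47 for sh4, SE 0.10, edgeR adjusted p = 0.00162). Between sh1 and sh4 the log2 difference was 1.03 (SE 0.10, edgeR adjusted p = 1.01e-04), a call that rests on a value at the threshold: it was lost with DESeq2 (0.996), with RLE scaling (0.996) and without sh1 replicate 3 (0.95) or sh4 replicate 1 (0.96). ZEB2 shares 1299 exon bases with ZEB2-AS1 on the opposite strand, which stayed at 0.62 CPM in sh1, 0.37 CPM in sh4 and 0.50 CPM in NC on average. The sources used here give no strand setting for the counting, so reads of such pairs cannot be told apart.

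The crest specifiers FOXD3 and SOX10 stood at different levels in the 2 hairpin groups. FOXD3, a forkhead factor of early crest cells, lies on chromosome 1 (63323041 to 63325126, plus strand; ENSG00000187140.6). It had 13.7, 9.78 and 12.8 CPM in sh1 organoids, 0.390, 3.47 and 0.719 CPM in sh4 organoids and 4.69, 5.87 and 5.75 CPM in NC organoids. The sh1 libraries were all above and the sh4 libraries all below NC. FOXD3 fell by 1.81 on the log2 scale in sh4 against NC (SE 0.56, edgeR adjusted p = 0.0164), was 1.15 higher in sh1 than in NC without passing the test (SE 0.50, edgeR adjusted p = 0.0845), and was 2.96 higher in sh1 than in sh4 (SE 0.56, edgeR adjusted p = 0.00213). The sh4 call was lost without sh4 replicate 3 (-1.46), and the value was -3.26 without sh4 replicate 2. Without that library the difference between sh1 and sh4 was 4.42. The sh1 value became a call with only the 2 groups in the fit, or without sh4 replicate 1 or sh4 replicate 2 (1.15 to 1.16). FOXD3 shares 179 exon bases with FOXD3-AS1 on the opposite strand, which averaged 5.03 CPM in sh1, 1.64 CPM in sh4 and 11.3 CPM in NC organoids. Like FOXD3, FOXD3-AS1 was lower in sh4 than in NC, but it was also lower in sh1, where FOXD3 was higher. The deposited FOXD3 counts were not whole in 3 NC libraries and 1 sh4 library. The part of FOXD3-AS1 reads in the FOXD3 values was not tested. The promoter of FOXD3 is shown since this gene differed most between the hairpins (RefSeq, GRCh38.p14, chr1:63322317-63322616, plus strand, 250 bases before to 50 after the start). This window ends before the GENCODE start of FOXD3 given above, since RefSeq places the start upstream of it. The window held none of the motifs searched, which are given with PRDM1.

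FOXD3: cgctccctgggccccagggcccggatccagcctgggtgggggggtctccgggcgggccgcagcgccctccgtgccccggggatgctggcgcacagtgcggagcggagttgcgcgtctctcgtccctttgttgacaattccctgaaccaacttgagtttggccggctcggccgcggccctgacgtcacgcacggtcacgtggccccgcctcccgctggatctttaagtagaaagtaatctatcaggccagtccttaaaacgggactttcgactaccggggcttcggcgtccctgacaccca

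SOX10, the factor of crest-derived glia and melanocytes, lies on chromosome 22 (37970686 to 37987422, minus strand; ENSG00000100146.19). Its level was 102, 63.9 and 89.4 CPM in sh1 organoids, 4.61, 50.2 and 11.6 CPM in sh4 organoids and 19.9, 36.9 and 32.7 CPM in NC organoids. The sh1 libraries were the highest, and the sh4 group spanned the NC group because replicate 2 stood high. SOX10 was 1.93 higher in sh1 than in sh4 on the log2 scale (SE 0.65, edgeR adjusted p = 0.0316). That call was lost with only the 2 groups in the fit (1.93) and without sh1 replicate 1 (1.79), sh1 replicate 3 (1.86) or sh4 replicate 3 (1.63), and the value was 3.38 without sh4 replicate 2. Against NC the values did not pass the test: 1.51 for sh1 (SE 0.63, edgeR adjusted p = 0.0762) and -0.42 for sh4 (SE 0.64, edgeR adjusted p = 0.580). The sh1 value became a call with no filter on low counts (1.51), with only the 2 groups in the fit (1.51) and without sh4 replicate 1 or sh4 replicate 2 (1.52). Without sh4 replicate 2 the sh4 value was -1.86 and called, and without sh4 replicate 1 it was 0.06. The 22 genes of crest derivatives (glia, melanocytes, autonomic and sensory neurons) summed to 996 to 1254 CPM in sh1 organoids, to 236, 691 and 328 CPM in sh4 replicates 1, 2 and 3, and to 695 to 877 CPM in NC organoids. No gene of this list was at 0 in any group, and its part in the SOX10 and FOXD3 values was not tested.

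SOX9, which acts in crest specification, radial glia and cartilage, lies on chromosome 17 (72121020 to 72126420, plus strand; ENSG00000125398.8). It was the member that fell with both hairpin labels. It had 55.0, 72.9 and 76.6 CPM in sh1 organoids, 33.3, 36.9 and 45.7 CPM in sh4 organoids and 157, 130 and 126 CPM in NC organoids. The 3 groups did not overlap, with NC highest. The log2 fold change was -1.01 for sh1 (SE 0.15, edgeR adjusted p = 5.48e-04) and -1.83 for sh4 (SE 0.16, edgeR adjusted p = 6.45e-06). The sh1 value sits at the fold threshold and was under it without sh1 replicate 1 (-0.88) or NC replicate 1 (-0.91). The difference between sh1 and sh4 was 0.82 (edgeR adjusted p = 0.00209), not a call except with library size alone (1.04). Neural progenitor markers moved with SOX9: 9 of 13 fell and none rose in sh1, and 10 of 13 fell and 1 rose in sh4. Their part in the SOX9 value was not tested.

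**Figure D2:**
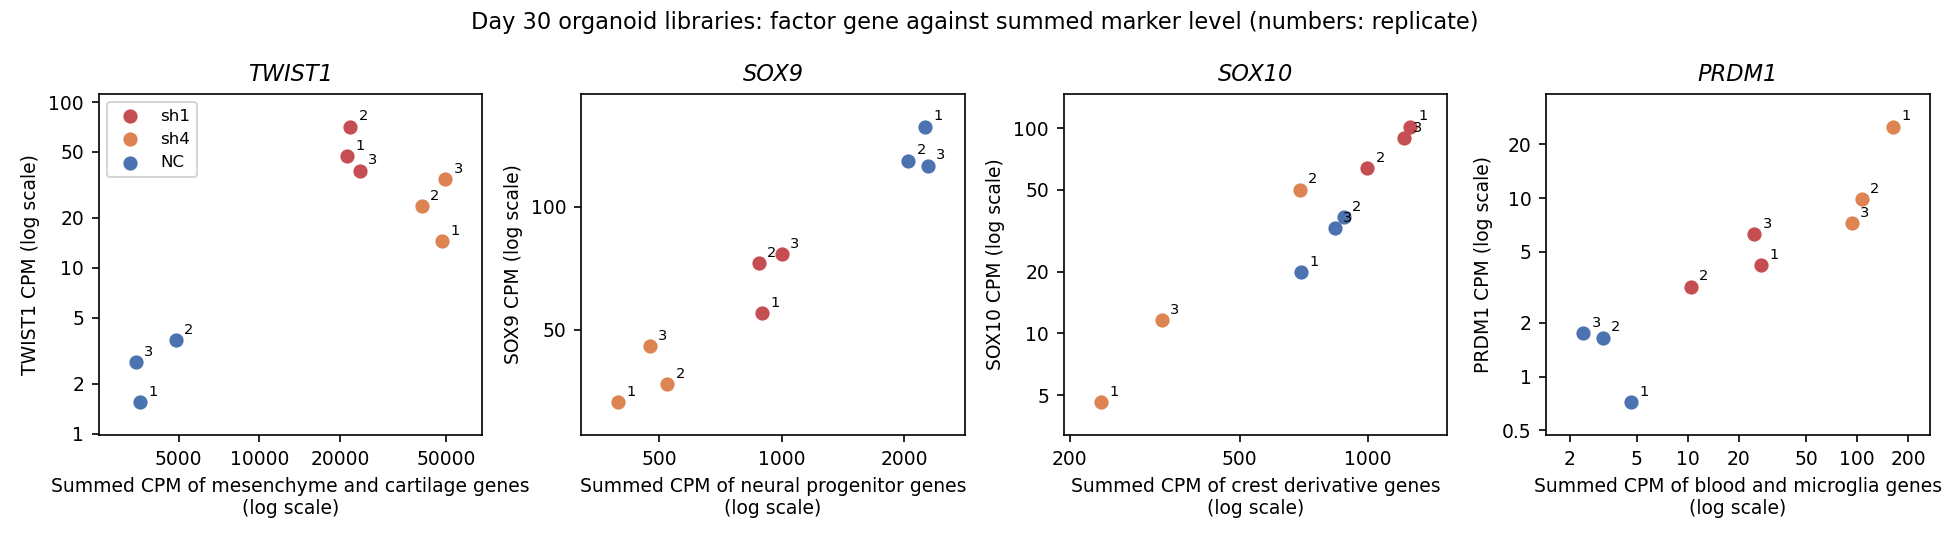
CPM of TWIST1, SOX9, SOX10 and PRDM1 (vertical axes, log scale) against the summed CPM of a marker list (horizontal axes, log scale) in the 9 day 30 organoid libraries; numbers are replicates. PRDM1 and SOX10 are highest where the summed blood and microglia (93.0 to 162 CPM in sh4) or crest derivative (996 to 1254 CPM in sh1) levels are highest. TWIST1 runs from 38.5 to 71.2 CPM in sh1 and from 14.4 to 34.4 CPM in sh4. The summed mesenchyme and cartilage level has the opposite order (21347 to 23715 CPM in sh1, 40444 to 49540 CPM in sh4).

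PRDM1, a zinc finger repressor known as BLIMP-1, lies on chromosome 6 (106086320 to 106109939, plus strand; ENSG00000057657.17). It had 4.22, 3.19 and 6.25 CPM in sh1 organoids, 25.1, 9.82 and 7.25 CPM in sh4 organoids and 0.718, 1.65 and 1.76 CPM in NC organoids. The groups did not overlap, with sh4 highest, and sh4 replicate 1 lay above every other library. The log2 fold change was 1.72 for sh1 (SE 0.54, edgeR adjusted p = 0.0251) and 3.35 for sh4 (SE 0.54, edgeR adjusted p = 3.48e-04). The sh1 call was lost without sh1 replicate 1 (1.78), sh1 replicate 3 (1.41), NC replicate 1 (1.41) or NC replicate 2 (1.88). PRDM1 was lower in sh1 than in sh4, by -1.62 on the log2 scale (SE 0.48, edgeR adjusted p = 0.0183), a call lost without sh1 replicate 1 (-1.57), sh1 replicate 2 (-1.42) or sh4 replicate 1 (-0.91). Blood and microglia markers moved with it, and so did other lists. The summed choroid plexus, astroglia and endothelium genes were also highest in sh4, with replicate 1 on top (9062, 1086 and 678 CPM). Of 8 blood and microglia markers, 6 rose in sh1 and 8 in sh4, and none fell. Their sum was 10.4 to 27.0 CPM in sh1, 93.0 to 162 CPM in sh4 and 2.40 to 4.64 CPM in NC, with none at 0. CD68, a macrophage protein, averaged 8.43 CPM in sh1 and 58.5 CPM in sh4, against 1.34 CPM in NC. Of 5 primordial germ cell markers tested, the other setting in which PRDM1 is well known, 2 fell and none rose with each hairpin, and in sh4 5 fell with library size alone and 3 without sh4 replicate 1 or sh4 replicate 2. The part of these cells in the PRDM1 values was not tested.

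RefSeq gives PRDM1 a pair of start sites, and both promoters are shown since the gene rose with each hairpin label (GRCh38.p14, plus strand, chr6:106086086-106086385 for the upstream and chr6:106098691-106098990 for the downstream window). Capitals mark matches on either strand to CACCTG, an E-box bound by SNAI and ZEB factors that reads CAGGTG on the other strand, to GCCNNNGGC, an AP-2 motif, or to AACAAT, a SOX motif. The upstream window held the AP-2 motif from position -104 and the E-box from position -90, counted from the start site, and they did not overlap. The downstream window held the AP-2 motif from position -138. Of 35116 promoter windows of the same length, 20.6% held CACCTG, 23.2% held GCCNNNGGC and 10.1% held AACAAT. Of the 10 members, 5 had an entry (7 windows); TFAP2B held AACAAT at position -114, and ZEB2 and TFAP2A held no match.

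PRDM1 upstream: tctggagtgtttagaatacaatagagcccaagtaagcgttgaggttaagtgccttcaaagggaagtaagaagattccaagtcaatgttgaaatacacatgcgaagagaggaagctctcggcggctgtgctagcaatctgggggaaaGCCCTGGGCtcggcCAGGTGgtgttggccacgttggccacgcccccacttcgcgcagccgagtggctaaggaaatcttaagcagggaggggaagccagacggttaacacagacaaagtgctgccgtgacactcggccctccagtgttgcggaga

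PRDM1 downstream: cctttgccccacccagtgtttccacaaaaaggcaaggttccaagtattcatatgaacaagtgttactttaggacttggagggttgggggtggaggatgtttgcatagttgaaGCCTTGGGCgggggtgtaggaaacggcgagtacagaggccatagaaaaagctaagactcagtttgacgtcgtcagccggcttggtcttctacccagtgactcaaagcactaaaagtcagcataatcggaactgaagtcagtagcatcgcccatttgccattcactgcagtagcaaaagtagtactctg

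The AP-2 genes were not called in any organoid comparison. TFAP2A, expressed in crest and surface ectoderm, lies on chromosome 6 (10393186 to 10419659, minus strand; ENSG00000137203.15). It had 26.9, 17.8 and 23.1 CPM in sh1 organoids, 19.4, 26.1 and 16.9 CPM in sh4 organoids and 23.1, 31.5 and 22.1 CPM in NC organoids. The groups overlapped. Its log2 fold change was -0.18 for sh1 (95% interval -0.64 to 0.28) and -0.30 for sh4 (-0.77 to 0.17). It shares 941 and 438 exon bases with TFAP2A-AS2 and TFAP2A-AS1, which averaged at most 1.61 CPM in any group.

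TFAP2B, its paralogue with roles in crest-derived sympathetic neurons, lies further along chromosome 6 (50818723 to 50847613, plus strand; ENSG00000008196.13). Its level was 27.3, 22.2 and 25.0 CPM in sh1 organoids, 19.2, 43.4 and 20.0 CPM in sh4 organoids and 21.2, 36.1 and 28.3 CPM in NC organoids. Here sh4 replicate 2 was again the highest of its group. The log2 fold changes were -0.20 for sh1 (95% interval -0.88 to 0.48) and -0.05 for sh4 (-0.73 to 0.63), intervals that include changes of moderate size. Surface ectoderm markers, which mark the tissue beside the crest, differed by hairpin: of 8 tested, none rose and 3 fell in sh1, and 7 rose in sh4. Their sum was 14.7 to 56.8 CPM in sh1, 377 to 533 CPM in sh4 and 36.1 to 62.7 CPM in NC.

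Set against each other, the hairpins gave 4 members higher in sh1 (TWIST1, ZEB2, FOXD3, SOX10) and 1 lower (PRDM1), where 7.83% of all genes were higher and 11.2% lower. These 5 calls became 2 without sh4 replicate 1 and 3 with any 1 sh1 library left out. Libraries of 7 of 10 members did not overlap between sh1 and sh4, against 59.2% of all genes. Per kilobase of annotated exon, SOX9 was the highest member in NC organoids (34.9 ± 4.28 CPM per kb, SD, n = 3), 17.3 ± 2.94 CPM per kb in sh1 and 9.82 ± 1.63 CPM per kb in sh4. TWIST1 was the ninth of 10 in NC organoids (1.30 ± 0.53 CPM per kb) and the first in sh1 (25.8 ± 8.30 CPM per kb), where its range overlapped that of SOX10 (22.9 ± 5.21 CPM per kb), the next in order. SNAI2 was the first in sh4 organoids (23.6 ± 2.34 CPM per kb), without overlap with TWIST1 after it (11.9 ± 4.92 CPM per kb). PRDM1 was the lowest in sh1 and NC organoids (0.712 ± 0.244 and 0.215 ± 0.0896 CPM per kb), and FOXD3 in sh4 (0.732 ± 0.811 CPM per kb). The exon length of ZEB2 (25058 bases over all its transcripts) sets it low on this scale.

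**Figure D3:**
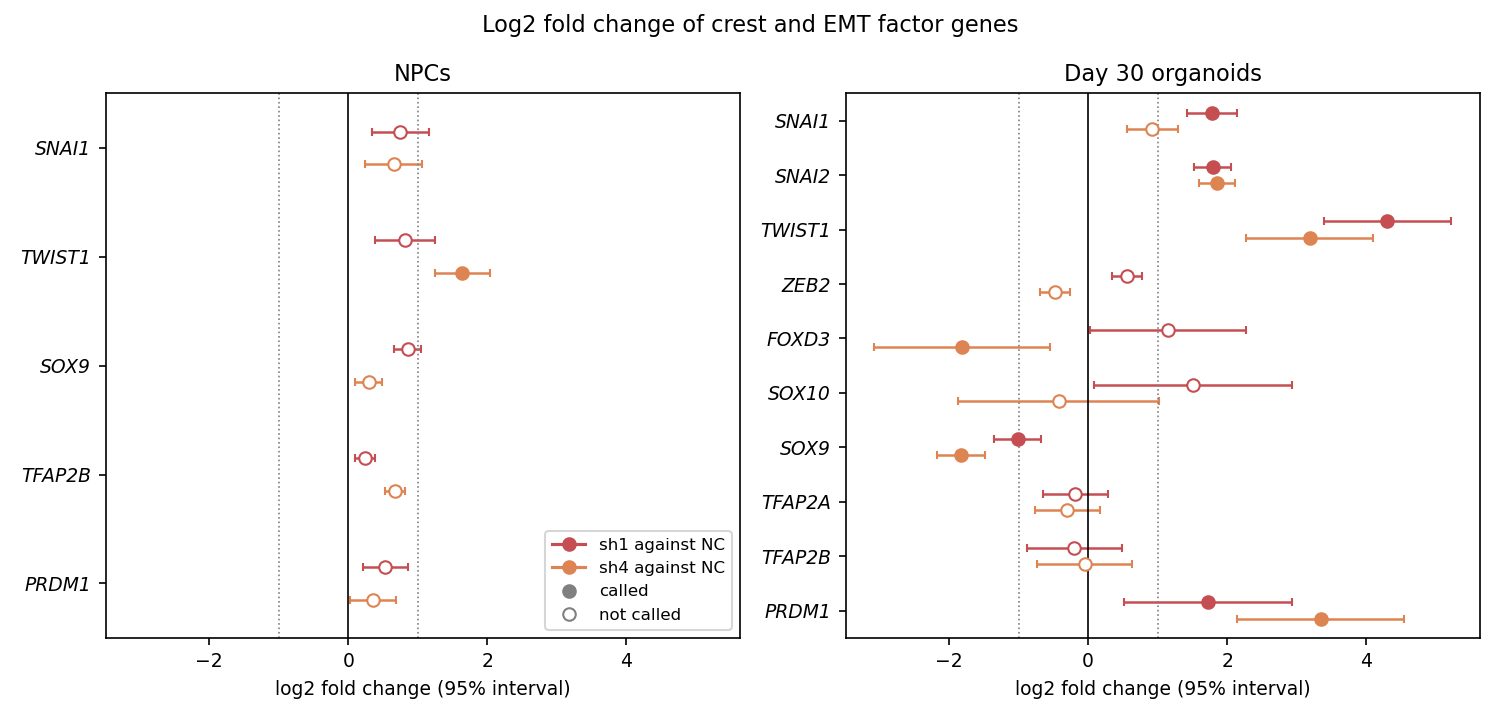
Log2 fold change (horizontal axis) with 95% intervals of sh1 and sh4 against NC in NPCs (left) and day 30 organoids (right), one row per gene; filled points are calls and dotted lines mark a log2 fold change of 1 in size. Of the 5 NPC genes only TWIST1 with sh4 is a call (1.64), while organoid values run from -1.83 for SOX9 to 4.30 for TWIST1.

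Genes around these factors in organoids were read from lists of crest and EMT genes without the 10 members. Crest surface and migration genes moved one way in sh1: 10 of 19 rose and none fell, with a median log2 fold change of 1.14. In sh4, 3 of 19 rose and 1 fell (median 0.35). CDH11, a cadherin of migrating crest and mesenchyme, rose to 307 CPM in sh1 and 298 CPM in sh4, against 98.6 CPM in NC. EDNRA, the endothelin receptor of facial crest, averaged 98.4 CPM in sh1 and 59.5 CPM in sh4, against 8.69 CPM in NC. NGFR, the p75 receptor used to sort crest cells, averaged 150 CPM in sh1, against 34.9 CPM in NC, a log2 fold change of 2.10 (edgeR adjusted p = 3.53e-05). NRP2, a semaphorin receptor, rose in sh4 to 253 CPM, against 98.2 CPM in NC. With library size alone, 5 genes of this list fell in sh4, and 4 fell without sh4 replicate 2.

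Border and specifier genes split. Of 27, 7 rose and 8 fell in sh1, and 5 rose and 11 fell in sh4 (medians 0.28 and -0.60). TWIST2, the paralogue of TWIST1, rose with both labels (7.90 CPM in sh1 and 6.09 CPM in sh4, against 0.518 CPM in NC). DLX5, a border homeobox gene that also marks forebrain interneuron precursors, fell with both (1.19 CPM in sh1 and 3.58 CPM in sh4, against 41.2 CPM in NC). With library size alone, 2 rose and 13 fell in sh4.

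The derivative list differed by hairpin as SOX10 did. Of 21 genes tested, 7 rose and 3 fell in sh1 (median 0.81), and 4 rose and 7 fell in sh4 (median -0.97). Between sh1 and sh4, 13 were higher and 1 lower. S100B, a calcium-binding protein of Schwann cells and other glia, rose in sh1 to 65.7 CPM, against 1.46 CPM in NC, and DBH, the noradrenaline enzyme of sympathetic neurons, rose to 8.94 CPM, against 1.67 CPM. PMP22, a peripheral myelin gene, rose in sh4 to 67.9 CPM, against 17.0 CPM in NC. Without sh4 replicate 2, 14 genes of the list fell in sh4.

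On the mesenchymal side of EMT, 11 of 23 genes rose and 1 fell in sh1, and 11 rose and 2 fell in sh4 (medians 0.77 and 0.99). With library size alone 4 fell in sh4, and without sh4 replicate 2, 3 fell. MMP14, a membrane metalloprotease, rose to 221 CPM in sh1 and 273 CPM in sh4, against 85.6 CPM in NC. TGFBI, a matrix protein induced by TGF-beta, rose in sh1 to 561 CPM, against 45.9 CPM, and SPARC rose in sh4 to 9057 CPM, against 844 CPM. Epithelial genes differed by label. In sh1, 2 of 28 rose and 11 fell (median -0.69), among them ESRP1, an epithelial splicing factor, at 8.96 CPM against 41.7 CPM in NC. In sh4, 13 rose and none fell (median 0.97), among them the keratins KRT8 (873 CPM, against 299 CPM in NC) and KRT18 (423 CPM, against 138 CPM in NC), and 9 rose without sh4 replicate 1. Between sh1 and sh4, 24 of 28 were lower and none higher. CDH1, named here after its values were seen because SNAI1 represses it, averaged 106 CPM in sh1, 314 CPM in sh4 and 160 CPM in NC, and neither change from NC was a call (log2 fold change -0.59, edgeR adjusted p = 0.0883, and 0.97, edgeR adjusted p = 0.00763).

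Cranial mesenchyme and cartilage markers mostly rose with both labels, as SNAI2 and TWIST1 did. Of 20 tested, 15 rose and 1 fell in sh1, and 13 rose and none fell in sh4. The 21 listed genes summed to 21347 to 23715 CPM in sh1, 40444 to 49540 CPM in sh4 and 3460 to 4875 CPM in NC, and none was at 0 in any group. COL3A1, a fibrillar collagen, averaged 11254 CPM in sh1 and 25971 CPM in sh4, against 1543 CPM in NC. COL3A1 made up much of these sums, and between sh1 and sh4 the list was balanced, with 5 genes higher and 4 lower (median -0.02). TWIST1 was lower in sh4 than in sh1, against the order of the sums, and SNAI2 overlapped between the hairpins. The part of mesenchyme in the SNAI2 and TWIST1 values was not tested.

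In NPCs the 5 listed members were low to moderate and each had a higher mean with both hairpins, mostly under the fold threshold. The NPC table is a selected list: between sh1 and NC, 99.3% of its tested genes passed an adjusted p of 0.05 at any fold change, so a small adjusted p there says little about the members, and CPM is relative to the listed genes. Between sh1 and NC no member was called by edgeR or DESeq2 (all 5 had an unadjusted p under 0.05), where 6.31% of all genes rose and 12.1% fell. Between sh4 and NC, TWIST1 alone was called, where 6.55% rose and 11.6% fell, and 88.0% passed at any fold change. Between sh1 and sh4 none was called by either tool (3 had an unadjusted p under 0.05), where 2.18% were higher, 2.42% lower and 27.6% passed at any fold change. Libraries did not overlap for 3 of 5 members between sh1 and NC, where 76.6% of all genes did not. Such separation held for 2 of 5 between sh4 and NC (72.8% of all genes) and 3 of 5 between sh1 and sh4 (20.6%).

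**Figure D4:**
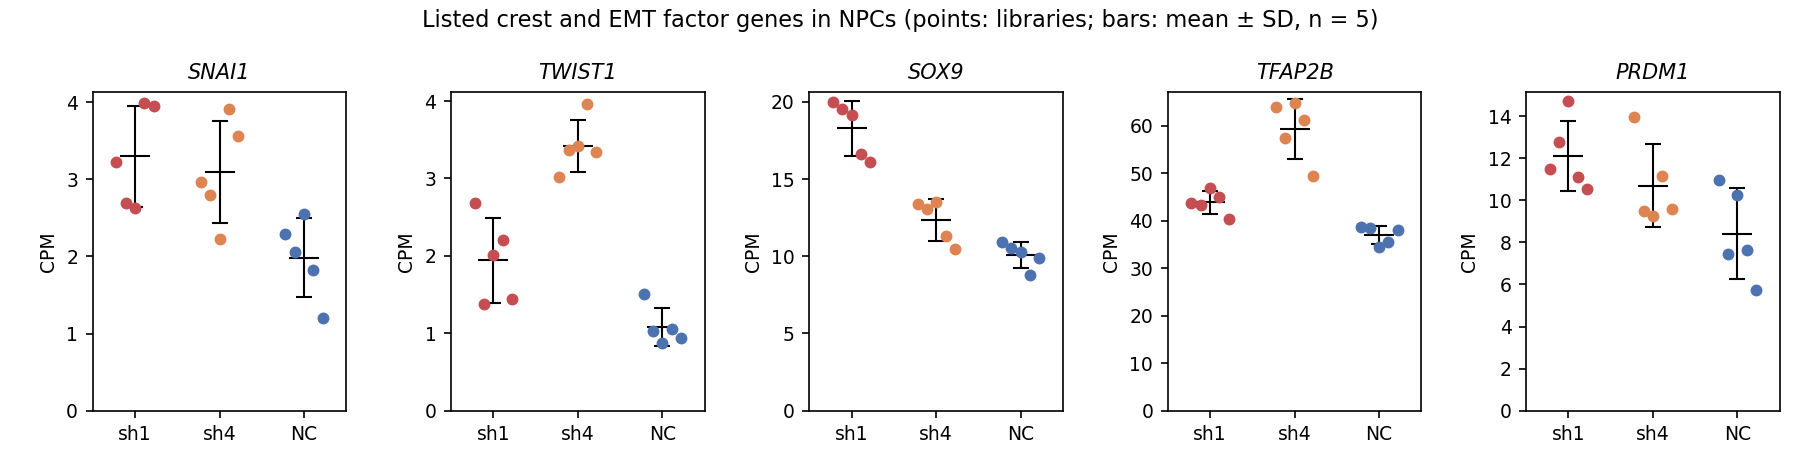
CPM of the 5 listed genes in NPCs (vertical axes, linear, each from 0), by label (sh1, sh4, NC); points are libraries and bars are the mean ± SD of 5. TWIST1 in sh4 (3.02 to 3.96 CPM) lies above every NC library (0.874 to 1.51 CPM), and SOX9 is highest in sh1.

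TWIST1 had 2.68, 1.37, 2.01, 2.20 and 1.44 CPM in sh1 NPCs, 3.02, 3.36, 3.41, 3.96 and 3.35 CPM in sh4 NPCs and 1.51, 1.03, 0.874, 1.05 and 0.939 CPM in NC NPCs. The sh4 libraries were higher than all others, and sh1 overlapped NC through NC replicate 1. The log2 fold change was 0.81 for sh1 (SE 0.20, edgeR adjusted p = 0.00109) and 1.64 for sh4 (SE 0.19, edgeR adjusted p = 1.54e-07). Between sh1 and sh4 it was -0.83 (edgeR adjusted p = 9.26e-04), the opposite sign to organoids, where TWIST1 was higher in sh1.

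SNAI1 had 3.22, 2.69, 2.63, 3.99 and 3.95 CPM in sh1 NPCs, 2.97, 2.79, 2.22, 3.91 and 3.56 CPM in sh4 NPCs and 2.29, 2.06, 2.55, 1.82 and 1.2 CPM in NC NPCs. The sh1 libraries lay above NC and the sh4 libraries overlapped it. The log2 fold changes were 0.75 for sh1 (SE 0.20) and 0.65 for sh4 (SE 0.20), and the hairpins did not differ by a call (0.10, 95% interval -0.29 to 0.49).

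SOX9 had 20.0, 19.5, 19.2, 16.6 and 16.1 CPM in sh1 NPCs, 13.4, 13.1, 13.5, 11.3 and 10.5 CPM in sh4 NPCs and 10.9, 10.6, 10.3, 8.78 and 9.91 CPM in NC NPCs. All sh1 libraries were above all others, and sh4 overlapped NC. The log2 fold changes were 0.86 for sh1 (SE 0.09) and 0.29 for sh4 (SE 0.10), where organoid SOX9 was lower with both labels. Of 10 neural progenitor markers tested in NPCs, 5 rose and 1 fell with each hairpin. The 11 listed markers summed to 2234 to 2518 CPM in sh1, 3207 to 3678 CPM in sh4 and 2489 to 2733 CPM in NC. The sum was thus highest in sh4, whereas SOX9 was highest in sh1. The part of these markers in the SOX9 values was not tested.

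TFAP2B was the most abundant of the 5, with 43.8, 43.4, 46.9, 45.0 and 40.4 CPM in sh1 NPCs, 63.9, 57.5, 64.7, 61.1 and 49.4 CPM in sh4 NPCs and 38.7, 38.5, 34.5, 35.5 and 38.1 CPM in NC NPCs. The 3 groups did not overlap, with sh4 highest. The log2 fold changes were 0.24 for sh1 (SE 0.07) and 0.68 for sh4 (SE 0.07).

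PRDM1 had 11.5, 12.8, 14.7, 11.1 and 10.5 CPM in sh1 NPCs, 13.96, 9.47, 9.26, 11.1 and 9.61 CPM in sh4 NPCs and 11.0, 7.47, 10.3, 7.62 and 5.74 CPM in NC NPCs. All 3 groups overlapped. The log2 fold changes were 0.53 for sh1 (SE 0.16) and 0.35 for sh4 (SE 0.16). No blood or microglia marker is among the listed NPC genes. Per kilobase of exon, TFAP2B was the highest in every NPC group (7.14 ± 0.39 CPM per kb in sh1, 9.65 ± 1.01 in sh4 and 6.03 ± 0.31 in NC, SD, n = 5 each) and SOX9 was next, each without overlap with the gene after it.

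Around them in NPCs, EMT mesenchymal genes rose more often than they fell: of 16 tested, 5 rose and 1 fell in sh1, and 7 rose and none fell in sh4. TGFBI averaged 16.9 CPM in sh1 and 121 CPM in sh4, against 3.90 CPM in NC, and MMP2, a gelatinase, 170 CPM in sh1 and 192 CPM in sh4, against 58.9 CPM in NC. Of 19 epithelial genes, 5 rose and 5 fell in sh1, and 3 rose and 5 fell in sh4. CDH1 was low but rose in sh1, to 1.40 CPM against 0.457 CPM in NC (log2 fold change 1.61, edgeR adjusted p = 3.55e-05). SNAI1, its repressor, was also higher in sh1 NPCs (0.75, not a call). Crest derivative genes fell more often in sh1 (3 rose and 9 fell of 15), among them DCT, a melanocyte enzyme, at 11.0 CPM against 26.8 CPM in NC. In sh4, 3 rose and 5 fell. Of 13 crest surface and migration genes, 1 rose and 4 fell in sh1, and 1 rose and 1 fell in sh4. NTRK2, a neurotrophin receptor, fell in sh1 to 55.0 CPM, against 270 CPM in NC. Of 10 border and specifier genes, 2 rose and 1 fell in sh1, and 1 rose and 4 fell in sh4. Of 14 mesenchyme and cartilage genes, 3 rose and 1 fell in sh1, and 5 rose and 2 fell in sh4 (medians 0.60 and 0.30). They summed to 5621 to 6686 CPM in sh1, 6119 to 6955 CPM in sh4 and 6772 to 7620 CPM in NC, of which COL3A1 averaged 4230 CPM in sh1, 4508 CPM in sh4 and 6157 CPM in NC. Their part in the TWIST1 values was not tested.

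The 2 systems were compared in a fit over 10020 genes listed in both tables. All of these belong to the selected NPC list, so shares of all genes in this comparison are shares of that list. With sh1, SOX9 differed by 1.90 on the log2 scale (NPC minus organoid, SE 0.17, edgeR adjusted p = 6.38e-10), TWIST1 by -3.46 (SE 0.45, edgeR adjusted p = 3.24e-07), PRDM1 by -1.16 (SE 0.50, edgeR adjusted p = 0.0390) and SNAI1 by -1.001 (SE 0.27, edgeR adjusted p = 0.00228). These were 4 of 5 members, where 30.5% of all genes were called. The SNAI1 call was lost with DESeq2 (-0.98) and when any 1 of 12 libraries was left out, the PRDM1 call with the replicate block (-1.11) and when any 1 of 7 libraries was left out, and the count fell to 2 at the lowest, without NPC sh1 replicate 1, NPC NC replicate 1, NPC NC replicate 3 or organoid NC replicate 1. With sh4, SOX9 differed by 2.12 (SE 0.17, edgeR adjusted p = 7.13e-11), PRDM1 by -3.002 (SE 0.48, edgeR adjusted p = 4.17e-06) and TWIST1 by -1.55 (SE 0.44, edgeR adjusted p = 0.00245), which were 3 of 5 members, where 39.7% of all genes were called. TFAP2B was not called in either (0.47, 95% interval -0.06 to 1.005, and 0.72, 0.19 to 1.25). The systems differ in culture, age and table, so a difference of tissue cannot be told apart from these.

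The genes most like each called member across libraries were found by Pearson correlation of log2 CPM, as a description of libraries that share groups and scaling. In organoids (9 libraries, 14765 other genes) SNAI2 was most like SLIT2 (r = 0.999), PDZRN3 (0.997) and METTL24 (0.997). TWIST1 was most like PGM5 (0.994), SULT1C4 (0.993) and TMEM132C (0.993). SNAI1 was most like SVIL (0.996), LINC01597 (0.994) and DRD2 (0.993). FOXD3 was most like GABBR2 (0.998), MMP17 (0.997) and CPLX1 (0.995), and SOX10 was most like P2RX3 (0.996), TLX2 (0.981) and EXOSC2 (0.981). SOX9 was most like ZNF397 (0.995), GUCA1B (0.994) and ARHGEF10 (0.994). PRDM1 was most like CD244 (0.994), SLC35G1 (0.994) and CA4 (0.993), and ZEB2 was most like ANO5 (0.987), PEX5L (0.987) and MCAM (0.985). In NPCs (15 libraries, 8982 other genes) TWIST1 was most like RSU1 (0.957), CDH4 (0.955) and NT5DC2 (0.954).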

How the data were processed

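Per the labels' protocols, poly(A) RNA was selected and cDNA primed with random hexamers. The submitters' processing notes name STAR, featureCounts and the build GRCh38.p13; the sources used here give no versions or settings. The authors' deposited tables hold expected counts (82.4% of NPC and 91.0% of organoid values were whole) and were rounded to whole numbers. Low genes were dropped (filterByExpr, minimum count 10), the rest scaled by TMM, and the quasi-likelihood test of edgeR 4.0.16 (R 4.3.3) run with the 3 groups of a system in 1 fit, adjusted by Benjamini-Hochberg over all genes tested. The script was tested on simulated data. Totals ran from 12733885 to 20185308 counts in NPCs (listed genes only, so not library depth) and from 15899248 to 18853747 counts in organoids. Replicates of a group all differed beyond counting noise (lowest chi-square per degree of freedom 2.60).

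Alternatives were DESeq2 1.42.0, library size alone, RLE scaling, no filter, fewer groups in the fit, a replicate block and leaving out each library. Lists were also recounted under other scalings and without each sh4 organoid library, chosen after seeing the data. The members and lists were chosen with earlier results of these data known. Besides the members and KDM2A, up to 3 genes per list and comparison could be named, those called with the smallest adjusted p at a mean log2 CPM no lower than 1, and the 3 most alike genes (prior count 2). List counts are given without a set test. The other lists (neuron, astroglia, oligodendrocyte, pigment epithelium, choroid plexus, pluripotent cell, endothelium and muscle) are summarised with the closing observations. Some genes that this rule would name are not reported here.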

Additional observations from a re-analysis of the deposited data

Results flagged for a closer look

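The log2 fold change against NC of TWIST1, SOX9 and PRDM1, and with sh1 also of SNAI1, differed between NPCs and day 30 organoids. The interaction test covered the genes shared with the selected NPC list, and organoids are called sh1 and sh4 by label alone. As NPC minus organoid log2 differences in sh1 against NC, the values were -3.46 for TWIST1, 1.90 for SOX9, -1.16 for PRDM1 and -1.001 for SNAI1. The SNAI1 value fell under the threshold with DESeq2 (-0.98), RLE scaling (-0.98), no filter or only the 4 groups of the contrast, and when any 1 of 12 libraries was left out. The PRDM1 call was lost when any 1 of 7 libraries was left out. In sh4 against NC they were -3.002 for PRDM1, 2.12 for SOX9 and -1.55 for TWIST1. SNAI1 in sh4 differed by -0.28 (edgeR adjusted p = 0.359), not a call. KDM2A itself differed by -1.12 with sh1 and -0.98 with sh4, where the hairpin groups were lower in NPCs and no lower level was seen in organoids. SOX9 had the opposite sign in the systems, with log2 fold changes of 0.86 (sh1) and 0.29 (sh4) in NPCs and -1.01 (sh1) and -1.83 (sh4) in organoids.

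In NC NPCs, TWIST1 in replicate 1 (1.51 CPM) lay farther from the other 4 libraries (0.874 to 1.05 CPM) than Dixon's critical value for 5 values allows. Chance flags about 1 in 20 groups, and 15 groups were examined. Without NC replicate 1 the sh4 call of TWIST1 in NPCs stood.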

How the results depend on the processing

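Of the values recomputed with 1 library left out, 683 kept direction and side of the threshold, 36 lost a call, 7 gained one and 9 changed sign; under the other settings these counts were 315, 8, 5 and 2. Leaving out 1 library moved the number of members called between 3 and 7 for organoid sh1 against NC (5 in the full fit, 3 without sh1 replicate 1 or NC replicate 1), between 2 and 5 for organoid sh1 against sh4 (2 without sh4 replicate 1, 3 with any 1 sh1 library left out), and between 2 and 4 for the system difference with sh1 (2 without NPC sh1 replicate 1, NPC NC replicate 1 or 3, or organoid NC replicate 1). The cause was not tested.

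The values that changed sign were not calls in the full fit. With library size alone, organoid sh1 against sh4 was 0.17 for SNAI2 and 0.0639 for TFAP2B. With 1 library left out, the ranges were -0.37 to 0.0057 for TFAP2B in sh1 against NC, -0.54 to 0.16 for TFAP2B and -1.86 to 0.0557 for SOX10 in sh4 against NC, and -0.13 to 0.0184 for SNAI2, -0.0210 to 0.32 for TFAP2A and -0.35 to 0.34 for TFAP2B in sh1 against sh4. Library size alone moved the median of all genes by -0.27 in organoid sh4 against NC and by -0.14 in both NPC comparisons with NC.

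The SNAI1 system difference with sh1 sat at the threshold and fell under it with DESeq2 (-0.98) and RLE scaling (-0.98), with no filter or only the 4 groups of the contrast, and when any 1 of 12 libraries was left out (-1.13 to -0.87 over all libraries). TFAP2B in the sh4 system difference was called without organoid sh4 replicate 2 (1.26). PRDM1 with sh1 lost its system call when any 1 of 7 libraries was left out (-1.37 to -0.84 over all). With the replicate block, the numbers of members called were 0, 1 and 0 in NPCs and 5, 5 and 5 in organoids (sh1 against NC, sh4 against NC, sh1 against sh4), and 3 in each system difference, where PRDM1 with sh1 (-1.11) lost its call. Same-numbered libraries correlated in their deviations from group means at -0.10 to 0.39 in NPCs and -0.16 to 0.04 in organoids. Libraries of other numbers correlated at -0.48 to 0.38 in NPCs and -0.18 to 0.19 in organoids. Among NPCs, the same-numbered pairs of replicate 1 (0.18 to 0.33) and of replicate 5 (0.23 to 0.39) were all positive. Those of replicates 2, 3 and 4 ran from -0.10 to 0.22. These values do not settle whether the numbers pair NPC libraries. Low counts limit several values: the lowest libraries had 6 counts of FOXD3 and 13 of PRDM1 in organoids, and 12 of TWIST1 in NPCs.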

Other observations

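Markers of other cell types that an organoid can hold gave the surroundings of these values. Choroid plexus genes rose in organoids (7 of 9 tested in sh1 and 8 of 9 in sh4, none fell), and their sum was 960 to 2117 CPM in sh1, 4226 to 9062 CPM in sh4 and 141 to 278 CPM in NC. Pigment epithelium genes rose in 4 of 6 tested with each hairpin, and 1 fell in sh4. Their sum, 874 to 1887 CPM in sh1, 4073 to 9017 CPM in sh4 and 135 to 268 CPM in NC, was close to that of choroid plexus genes. Both lists hold TTR, so these sums do not separate the tissues. Endothelial genes rose in 5 of 9 in sh1 and 6 of 9 in sh4, where 1 fell. Astroglial genes rose in 4 and fell in 1 of 8 in sh1, and rose in 5 and fell in 1 in sh4. Oligodendrocyte genes rose in 4 of 9 in sh1 with none falling, and rose in 5 and fell in 1 in sh4. Muscle genes rose in 2 and fell in 2 of 6 in sh1, and rose in 3 and fell in 1 in sh4.

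Neuronal genes fell in sh4 (12 of 12), while in sh1 1 rose and 2 fell (2 and 4 without sh4 replicate 1 or sh4 replicate 2 in the fit). Their sum was 2527 to 3095 CPM in sh1 and 3594 to 4001 CPM in NC. In sh4 replicates 1, 2 and 3 it was 269, 1167 and 546 CPM, so replicate 2 was the highest of its group. That library was also the highest of its group for SOX10, FOXD3, TFAP2B, TFAP2A, ZEB2 and, by little, SNAI1. All 11 pluripotency genes tested in organoids fell with each hairpin, with sums of 126 to 134 CPM in sh1, 126 to 172 CPM in sh4 and 962 to 1446 CPM in NC. In NPCs, of 10 tested, 6 rose and 1 fell in sh1, and 8 rose and 1 fell in sh4.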
